A study of Mus musculus with 6 samples.

Results

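The genes of the transforming growth factor beta (TGF-beta) and bone morphogenetic protein (BMP) system were described in the nasomaxillary complex, the bone, cartilage, epithelium and soft tissue of the upper jaw and nose, of E17.5 mouse embryos. The set was a list of 51 gene symbols chosen by their function: BMP and growth differentiation factor (GDF) ligands, TGF-beta and activin ligands, receptors, Smads, secreted antagonists and latent TGF-beta binding proteins. All 51 were found among the 24346 symbols measured. The 3 control libraries came from Pth1r f/f embryos, labelled Flox control, and the 3 mutant libraries from Wnt1-Cre:Pth1r f/f embryos, with no treatment in either group. The floxed Pth1r alleles are shared by all 6 libraries, and only the mutants carry Wnt1-Cre, which recombines floxed alleles in neural crest cells and their descendants, from which most facial bone and cartilage arises. An effect of Cre itself and an effect of losing Pth1r cannot be told apart. Pth1r is the receptor for parathyroid hormone and its related peptide. The labels do not say whether a library is 1 embryo or a pool.

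In this system, secreted ligands bind pairs of type I and type II receptor kinases. TGF-beta and activin ligands signal mainly through Smad2 and Smad3, BMP ligands through Smad1, Smad5 and Smad9, and both arms share Smad4. Latent TGF-beta binding proteins hold TGF-beta in the matrix, and antagonists such as noggin, chordin and follistatin hold ligands away from receptors. In the embryonic face the pathway is known for roles in palate fusion, cartilage and bone formation and tooth development.

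Levels are in FPKM (mapped fragments divided by transcript length and library size). Median ratio factors of the deposited values were 1.002 or 1.003, so the libraries were already on a common scale. Estimated depth ran from 8670000 fragments in mutant replicate 3 to 14300000 in control replicate 2, so 1 FPKM stood for about 8.67 fragments per kilobase of transcript in the shallowest library and 12.9 in control replicate 1. A given FPKM thus rested on the fewest fragments in mutant replicate 3. The control replicates and mutant replicate 1 carried the expression of female embryos, and mutant replicates 2 and 3 that of male embryos, so sex was unevenly spread over the groups. Pth1r was at 75.2, 55.2 and 73.5 FPKM in control replicates 1 to 3 and at 77.3, 78.4 and 69.7 in mutant replicates 1 to 3 (log2 change 0.15 ± 0.12 SE, limma adjusted p = 0.686). Control replicate 2 was the lowest, and without it the change was 0.013, while without control replicate 1 it was 0.23. The floxed stretch is not stated, so the whole-gene value does not check the labels.

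The tissue label was set against defining genes. Col2a1 of cartilage, Col1a1 of bone, Krt5 of surface epithelium and Bpifa1 of nasal epithelium were present in all 6 libraries. The enamel gene Amelx was at 81.4, 84.4 and 0.880 FPKM in control replicates 1 to 3 and at 1.5, 0.149 and 0 in mutant replicates 1 to 3. It was thus high in 2 controls and below 2 FPKM in the other 4 libraries.

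No gene of the set passed the test in either direction. The test was limma on log2(FPKM + 1), two-sided, with a Benjamini-Hochberg adjusted p under 0.05 over the 14766 genes whose mean reached 1 FPKM. It covered 50 of the 51 members, all but Gdf7, and called 0 of them, while over all tested genes it called 39, or 0.264%, with 9 higher and 30 lower in mutants. An unadjusted p under 0.05 was reached by 7 members, or 14.0%, beside 11.3% of all tested genes. The smallest limma adjusted p among the members was 0.294, for Bmpr2.

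The members' changes were small and lay on both sides of 0. The log2 change was positive for 32 and negative for 18 of the 50, or 64.0% positive beside 49.2% of all tested genes. Their median log2 change was 0.023, beside -0.0020 over all genes, and their median absolute change was 0.093, beside 0.072. The range ran from -0.34 for Inhba to 0.41 for Mstn. No tested member's estimate passed 1.5-fold on the log2(FPKM + 1) scale, where 319 of all 14766 tested genes, or 2.16%, did. That scale understates the change of low genes: as a ratio of mean FPKM, mutant over control, Mstn was at 1.599 and the untested Gdf7 at 0.635. Among the 38 members with a mean of at least 5 FPKM, the 95% interval of the change lay within 1.5-fold up or down for 37, or 97.4%, beside 94.3% of all genes at that level. Ltbp2 was the exception, with an interval from 0.941-fold to 1.78-fold. Below that level, the intervals of Mstn, Inhba, Chrdl2 and Nog also reached past 1.5-fold.

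**Figure D1:**
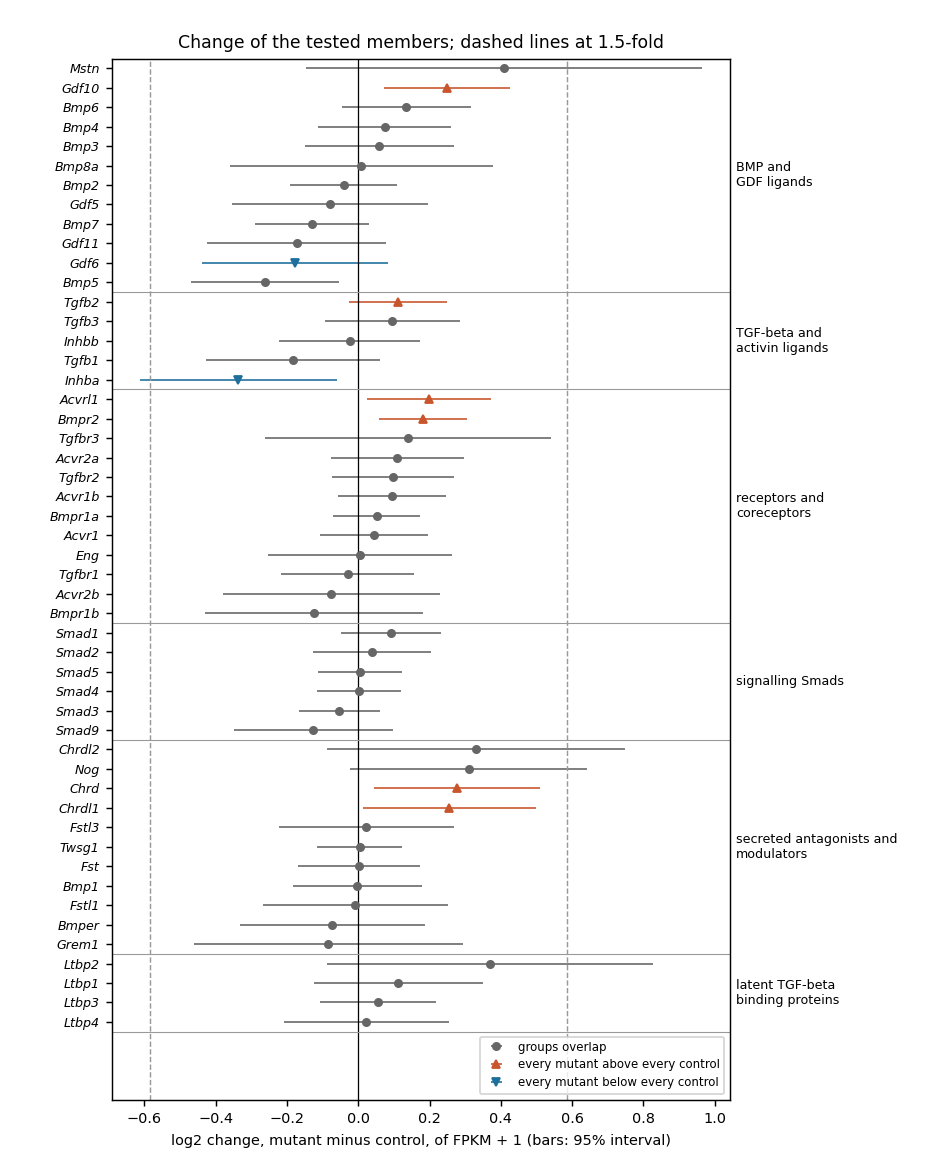
Log2 change, mutant minus control, of FPKM + 1 for the 50 tested members, grouped by role, with 95% limma intervals as bars and dashed lines at 1.5-fold. Orange and blue triangles mark members whose 3 mutant values all lie above or below the 3 control values. All point estimates lie inside the dashed lines.

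In 8 tested members, or 16.0%, the 3 mutant values all lay on one side of the 3 control values, beside 17.0% of all tested genes. In 6 of these members the mutants were higher, where 7.85% of all genes showed that pattern, and in 2 they were lower, where 9.16% did. The total share is close to the background, so the following values describe these members and do not set them apart from other genes.

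Of the 13 BMP and GDF ligands, Gdf10, a ligand also called BMP3b that is known in craniofacial bone and cartilage, had the highest level. Gdf10 stood at 48.5, 41.4 and 46.9 FPKM in the controls, replicates 1 to 3, and at 56.5, 56.0 and 50.2 in the mutants. All 3 mutant values lay above all 3 control values. The means were 45.6 ± 3.72 and 54.3 ± 3.49 (SD, n = 3), a log2 change of 0.25 ± 0.075 SE with a 95% interval from 0.071 to 0.43, and the limma adjusted p was 0.304. Gdf10 lies at chr14:33923587-33937983 on the plus strand of GRCm38. It made up 31.4% ± 1.41 of the summed FPKM of the BMP and GDF ligands in controls and 35.8% ± 0.713 in mutants (SD, n = 3).

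Below Gdf10 the order was Bmp4 and Bmp7 at means of 20.8 and 20.3 FPKM over all 6 libraries, and Bmp6 at 11.7. Bmp4 and Bmp7, which induce bone and pattern the facial primordia, did not differ beyond their spread over libraries. Bmp4 ran from 18.2 to 22.3 FPKM and Bmp7 from 18.02 to 22.6. Bmp3, an antagonist-like ligand of bone, Bmp5, a bone-inducing ligand of skeletal primordia, and Gdf11, a ligand of axial patterning, followed at 9.46, 9.34 and 9.28 FPKM, and Bmp2, an osteogenic ligand, at 7.79. Bmp8a, Gdf5 of joints, Mstn (myostatin, a muscle growth inhibitor) and Gdf6 of joints and sutures were below 3 FPKM on average.

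Bmp5 had the lowest change of the BMP and GDF ligands. It was at 10.8, 9.21 and 10.8 FPKM in control replicates 1 to 3 and at 7.98, 9.30 and 7.94 in mutant replicates 1 to 3. Mutant replicate 2 lay within the control range, and the other two mutants lay below it. The log2 change was -0.26 ± 0.088 SE (limma adjusted p = 0.347).

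Gdf6 was at 1.31, 1.58 and 1.55 FPKM in control replicates 1 to 3 and at 1.22, 1.29 and 1.07 in mutant replicates 1 to 3, with no overlap of the groups. Its log2 change was -0.18 ± 0.11 SE (limma adjusted p = 0.599). Gdf7, a close relative of Gdf5 and Gdf6, was at 0.829, 1.55 and 0.883 FPKM in the controls and at 0.753, 0.787 and 0.529 in the mutants. Its mutant values also lay below all controls, but at a mean of 0.888 FPKM it was not tested.

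Mstn had the highest change of the set and the widest interval. It was at 1.99, 1.56 and 1.27 FPKM in control replicates 1 to 3 and at 2.17, 3.93 and 1.61 in mutant replicates 1 to 3. The groups overlapped, and mutant replicate 2 stood above the rest. The log2 change was 0.41 ± 0.24 SE (limma adjusted p = 0.568), and 0.15 without mutant replicate 2. The summed FPKM of 12 skeletal muscle markers was also highest in that library, at 1591, beside 426.6 to 706 in the controls and 853 and 642 in mutant replicates 1 and 3. All 12 muscle markers had a positive change and 0 passed the test. Their part in the Mstn values was not tested.

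Of the 12 tested BMP and GDF ligands, 6 had a positive and 6 a negative change, with a median of -0.016. Their summed FPKM was 138.6 to 153 in controls and 143 to 158 in mutants. The ligand pool as a whole therefore overlapped between the groups.

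**Figure D2:**
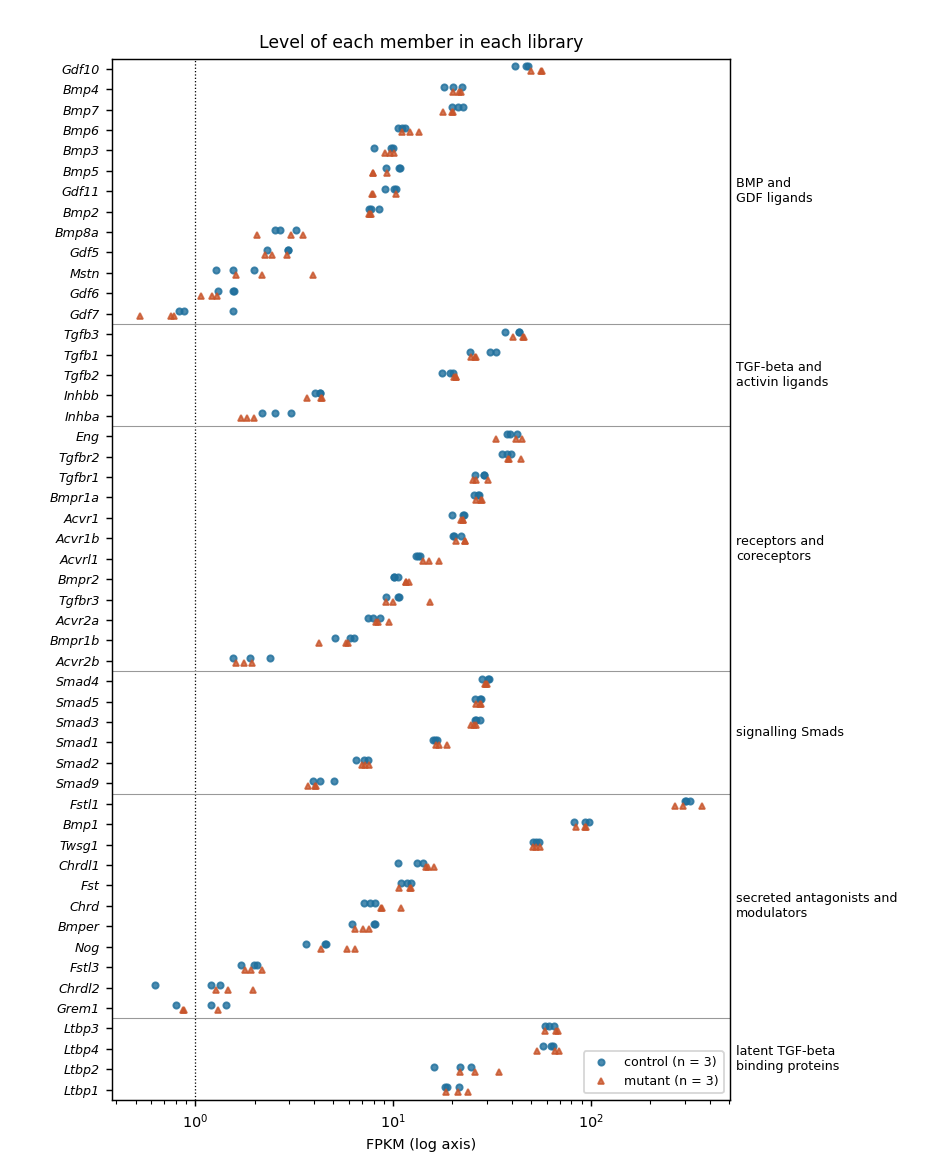
FPKM of the 51 members in each of the 6 libraries on a log axis, ordered by mean within each role. Circles are control and triangles mutant libraries, and the dotted line is at 1 FPKM. Fstl1 has the highest level of the set and Gdf7 the lowest, and the spread within a gene is small beside the range between genes.

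The TGF-beta ligands were dominated by Tgfb3, the isoform known for palate fusion. Tgfb3 was at 43.3, 36.8 and 43.5 FPKM in control replicates 1 to 3 and at 45.4, 46.0 and 40.7 in mutant replicates 1 to 3, and the groups overlapped. Its log2 change was 0.096 ± 0.081 SE (limma adjusted p = 0.715), or 0.018 without control replicate 2 and 0.15 without mutant replicate 3. Tgfb1, an isoform abundant in bone matrix and blood cells, was at 30.9, 24.6 and 33.2 FPKM in controls and 26.1, 24.7 and 26.3 in mutants. Control replicate 2 lay below the mutants while the other two controls lay above them (log2 change -0.18 ± 0.10 SE, limma adjusted p = 0.560). The change was -0.31 without control replicate 2 and -0.099 without control replicate 3.

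Tgfb2, an isoform needed for craniofacial and heart development, was at 20.2, 19.4 and 17.8 FPKM in control replicates 1 to 3 and at 21.0, 20.8 and 20.3 in mutant replicates 1 to 3. All mutants lay above all controls, by a narrow margin at control replicate 1. The means were 19.1 ± 1.22 and 20.7 ± 0.319 (SD, n = 3), with a log2 change of 0.11 ± 0.058 SE (limma adjusted p = 0.527), or 0.063 without control replicate 3. The gene lies at chr1:186622792-186705989 on the minus strand.

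As shares of the summed FPKM of these 3 isoforms, Tgfb3 made up 45.8% ± 0.261 in controls and 48.7% ± 1.84 in mutants, Tgfb1 32.8% ± 2.33 and 28.5% ± 1.53, and Tgfb2 21.4% ± 2.58 and 22.9% ± 0.344 (SD, n = 3). The order Tgfb3, Tgfb1, Tgfb2 held in all 6 libraries.

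Inhba, which encodes the activin A subunit, was the member with the largest negative change. It was at 2.19, 2.55 and 3.07 FPKM in control replicates 1 to 3 and at 1.98, 1.71 and 1.83 in mutant replicates 1 to 3. Every mutant lay below every control. The means were 2.60 ± 0.444 and 1.84 ± 0.136 (SD, n = 3), with a log2 change of -0.34 ± 0.12 SE, a 95% interval from -0.61 to -0.061 and a limma adjusted p of 0.362. Inhba lies at chr13:16011851-16031621 on the plus strand. Inhbb, the activin B subunit, ran from 3.67 to 4.38 FPKM with overlapping groups.

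The promoters of 3 of these ligands are shown because they were tested, their groups did not overlap and RefSeq holds a start site for each. Each line gives the 250 bases before that start, 5′ to 3′ on the gene's strand, from RefSeq on GRCm38.p6. The windows are chr14:33923337-33923586 on the plus strand for Gdf10, chr1:186705990-186706239 on the minus strand for Tgfb2 and chr13:16011601-16011850 on the plus strand for Inhba. Capitals mark matches on either strand to the Smad-binding CAGACA, the BMP-type Smad element GGCGCC, the core TGACG of the cAMP response element, or TATAAA.
Gdf10: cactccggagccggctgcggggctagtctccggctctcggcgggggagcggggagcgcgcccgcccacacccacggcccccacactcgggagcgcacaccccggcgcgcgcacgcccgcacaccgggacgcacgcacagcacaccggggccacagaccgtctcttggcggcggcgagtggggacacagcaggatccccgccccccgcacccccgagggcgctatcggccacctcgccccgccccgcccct
Tgfb2: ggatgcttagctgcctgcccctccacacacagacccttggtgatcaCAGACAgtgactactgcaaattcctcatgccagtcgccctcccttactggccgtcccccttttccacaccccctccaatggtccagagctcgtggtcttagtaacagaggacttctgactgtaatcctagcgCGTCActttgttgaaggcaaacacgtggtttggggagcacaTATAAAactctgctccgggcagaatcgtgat
Inhba: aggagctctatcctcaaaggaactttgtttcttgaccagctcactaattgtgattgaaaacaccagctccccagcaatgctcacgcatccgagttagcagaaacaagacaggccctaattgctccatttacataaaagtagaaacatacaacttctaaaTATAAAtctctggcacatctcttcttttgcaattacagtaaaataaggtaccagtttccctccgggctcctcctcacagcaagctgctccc
Gdf10 had no match in its window, Inhba had a TATAAA, and Tgfb2 had the letters CAGACA, then further on TGACG on the other strand (printed as CGTCA) and then TATAAA. Of all 32851 promoter windows of this length, CAGACA was in 17.1%, GGCGCC in 9.59%, TGACG in 17.8% and TATAAA in 12.4%. Among 44 windows of 36 members the shares were 15.9%, 20.5%, 13.6% and 13.6%. A match is a run of letters and no measured binding site.

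Of the 12 receptors and coreceptors, 9 had a positive and 3 a negative change, with a median log2 change of 0.073. Eng (endoglin, a coreceptor of endothelium) and Tgfbr2, the TGF-beta type II receptor, had the highest levels, with means of 39.9 and 39.1 FPKM that did not differ beyond their spread. Eng was at 42.3, 39.2 and 37.6 FPKM in control replicates 1 to 3 and at 41.9, 45.2 and 33.3 in mutant replicates 1 to 3. Both its highest and its lowest value were mutant libraries (log2 change 0.0054 ± 0.11 SE). The type I receptors Tgfbr1 and Bmpr1a followed at 27.7 and 27.1 FPKM, then the BMP-arm Acvr1 and the activin-arm Acvr1b at 22.1 and 21.6. Bmpr1b, the BMP type I receptor known in cartilage condensations, was at 5.59 FPKM, and the activin type II receptors Acvr2a and Acvr2b at 8.37 and 1.86.

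Bmpr2, the BMP type II receptor, showed the smallest p of the set. It stood at 10.1, 10.2 and 10.6 FPKM in the controls, replicates 1 to 3, and at 12.1, 11.7 and 11.7 in the mutants. The groups did not overlap, and the gap between them was wider than either group's spread. The means were 10.3 ± 0.275 and 11.8 ± 0.242 (SD, n = 3), with a log2 change of 0.18 ± 0.052 SE, a 95% interval from 0.058 to 0.30 and a limma adjusted p of 0.294. The gene lies at chr1:59763400-59879014 on the plus strand.

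Acvrl1, a type I receptor (ALK1) of endothelium, was at 13.1, 13.4 and 13.7 FPKM in control replicates 1 to 3 and at 14.2, 17.2 and 15.2 in mutant replicates 1 to 3. Every mutant lay above every control, mutant replicate 2 the farthest. The log2 change was 0.20 ± 0.074 SE (limma adjusted p = 0.388), and 0.13 without mutant replicate 2. The summed FPKM of 10 endothelial markers was likewise highest in mutant replicate 2, at 275, beside 219.8 to 245 in the controls and 238 and 242 in the other mutants. Their part in the Acvrl1 values was not tested, and in bulk tissue fewer or more cells of a type cannot be told apart from less or more RNA per cell. Acvrl1 lies at chr15:101128522-101145336 on the plus strand. Tgfbr3 (betaglycan, a TGF-beta coreceptor) was also highest in mutant replicate 2, at 15.4 FPKM, with the other libraries between 9.22 and 10.7.

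**Figure D3:**
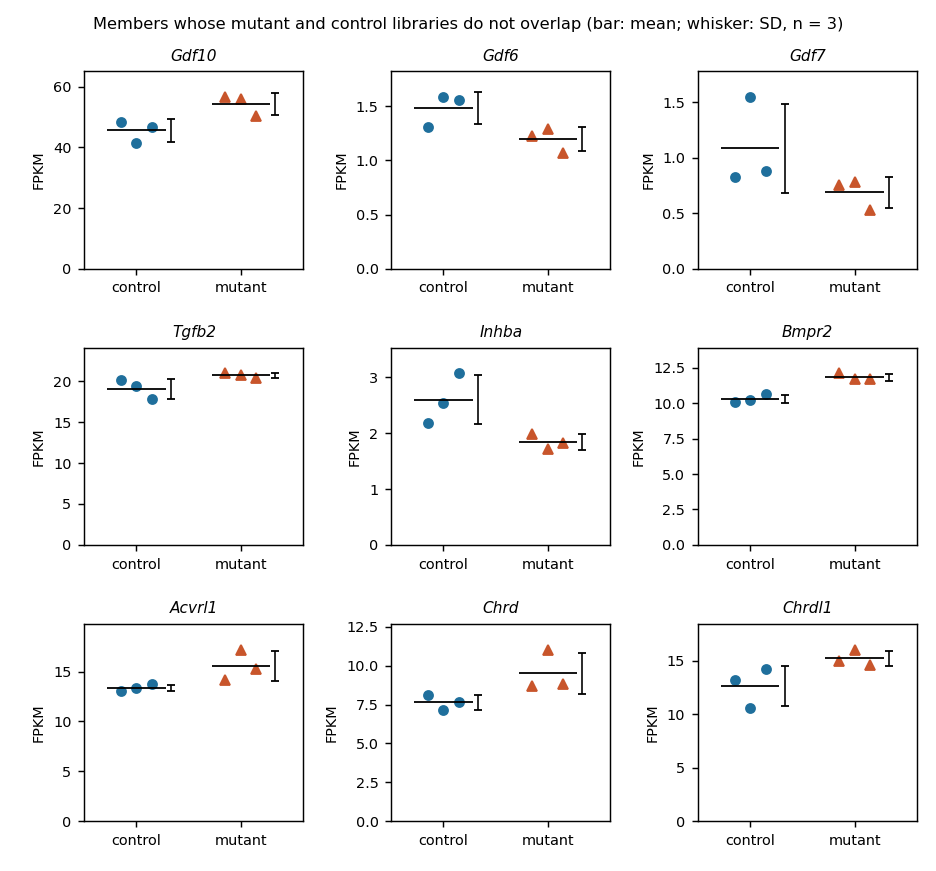
FPKM by library for members whose control and mutant values do not overlap, with group means as bars and SD as whiskers (n = 3). Gdf10, Tgfb2, Bmpr2, Acvrl1, Chrd and Chrdl1 lie higher in mutants, and Gdf6, Inhba and the untested Gdf7 lower. None had an adjusted p under 0.05.

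The 6 signalling Smads were the most even class. Smad4, the Smad shared by both arms, was at 28.1, 30.1 and 30.7 FPKM in control replicates 1 to 3 and at 29.2, 29.7 and 30.1 in mutant replicates 1 to 3. The mutants lay inside the control range, with a log2 change of 0.0023 ± 0.051 SE and a 95% interval from -0.12 to 0.12. Smad5 and Smad3 had means of 27.2 and 26.1 FPKM, Smad1 16.9, Smad2 7.16 and Smad9 4.19. None of the 6 separated the groups. The class median change was 0.0034, and the smallest limma adjusted p was 0.621, for Smad1. Summed over the class, FPKM was 110.8 to 111.8 in controls and 109 to 113 in mutants.

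The secreted antagonists and modulators were led by Fstl1, a follistatin-like glycoprotein of mesenchyme, which made up 61.6% ± 1.04 of the class's summed FPKM in controls and 60.7% ± 2.84 in mutants (SD, n = 3). Fstl1 was at 319.7, 299.6 and 302 FPKM in control replicates 1 to 3 and at 292, 366 and 267 in mutant replicates 1 to 3. Its highest and lowest values were both mutants (log2 change -0.0077 ± 0.11 SE). Bmp1, a protease that cleaves procollagens and chordin and is no BMP ligand, had a mean of 90.8 FPKM. Twsg1, a chordin partner, was at 53.0 FPKM. Fst (follistatin, an activin trap) was at 11.7 and the BMP-binding Bmper at 7.24.

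Chrd (chordin, a BMP trap) was at 8.11, 7.14 and 7.64 FPKM in control replicates 1 to 3 and at 8.67, 11.0 and 8.79 in mutant replicates 1 to 3. All mutants lay above all controls, and mutant replicate 2 stood out. The means were 7.63 ± 0.482 and 9.50 ± 1.33 (SD, n = 3), with a log2 change of 0.28 ± 0.099 SE and a limma adjusted p of 0.370. Without mutant replicate 2 the change was 0.17. The gene lies at chr16:20733127-20742384 on the plus strand and overlaps Thpo on the other strand.

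Chrdl1 (chordin-like 1) was at 13.2, 10.6 and 14.2 FPKM in control replicates 1 to 3 and at 14.99, 16.1 and 14.6 in mutant replicates 1 to 3. The groups did not overlap, and control replicate 2 lay farthest down. The log2 change was 0.26 ± 0.10 SE (limma adjusted p = 0.421), and 0.14 without control replicate 2. It lies on the X chromosome at chrX:143285674-143394262 on the minus strand. Nog (noggin), the classical BMP trap, was at 4.60, 3.63 and 4.55 FPKM in controls and 6.47, 5.87 and 4.34 in mutants. Mutant replicate 3 lay among the controls (log2 change 0.31 ± 0.14 SE, limma adjusted p = 0.470). The BMP traps Chrdl2 and Grem1 and the activin trap Fstl3 had means of 1.31, 1.08 and 1.94 FPKM, and their groups overlapped.

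The window before the Chrd start, chr16:20732877-20733126 on the plus strand of GRCm38.p6 from RefSeq, is shown as that of the antagonist whose groups did not overlap and that has an entry. Its capitals mark a GGCGCC.
Chrd: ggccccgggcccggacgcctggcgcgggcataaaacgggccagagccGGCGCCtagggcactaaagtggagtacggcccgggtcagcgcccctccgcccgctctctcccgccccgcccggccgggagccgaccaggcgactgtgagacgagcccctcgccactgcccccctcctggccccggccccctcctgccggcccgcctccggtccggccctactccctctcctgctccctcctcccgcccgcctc

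All 4 latent TGF-beta binding proteins had a positive change, with a median of 0.084, and in none did the groups separate. Ltbp3 was at 65.0, 59.0 and 61.6 FPKM in control replicates 1 to 3 and at 66.6, 68.1 and 58.7 in mutant replicates 1 to 3 (log2 change 0.056 ± 0.069 SE, or 0.016 without mutant replicate 2 to 0.12 without mutant replicate 3). Ltbp4 was close to it, at a mean of 62.4 FPKM beside 63.2, and the values of both genes overlapped. Ltbp2, a fibrillin-associated family member, was at 24.9, 21.9 and 16.2 FPKM in controls and at 26.0, 34.6 and 21.9 in mutants. It was highest in mutant replicate 2 and lowest in control replicate 3, with a log2 change of 0.37 ± 0.19 SE (limma adjusted p = 0.530), or 0.20 without mutant replicate 2 and likewise 0.20 without control replicate 3. Ltbp1 had a mean of 20.4 FPKM.

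Mutant replicate 2 gave the highest value for 18 of the 50 tested members, and control replicate 2 the lowest for 17. The same counts over all tested genes were not made, so these do not set the members apart from other genes. Among the 4 libraries of female embryos, which leaves mutant replicate 1 against the 3 controls, the log2 change was 0.31 for Gdf10, 0.13 for Tgfb2, 0.21 for Bmpr2, 0.080 for Acvrl1, 0.17 for Chrd, 0.23 for Chrdl1, -0.26 for Inhba and -0.16 for Gdf6. In these members every mutant lay beyond every control, so the signs could not differ from those of all 6 libraries. The signs are thus no check on the part of sex. The Acvrl1 and Chrd changes were under those of all libraries by more than 1.5 times. Members with overlapping groups could turn sign, as Gdf11 did, at -0.17 in all libraries and 0.059 in the female ones.

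The marker sums of several tissues also separated the groups, though not every marker within them did. The summed FPKM of 12 cartilage markers was 1649 to 2005 in controls and 507 to 870.2 in mutants, with all 12 changes negative and 7 called by limma. Leukocyte markers summed to 321 to 337 in controls and 370.5 to 399.6 in mutants, with 11 of 11 changes positive and 0 called. Of these, Fcer1g, Laptm5, S100a8 and S100a9 separated the groups, and the other leukocyte markers overlapped. Surface epithelium markers summed to 632 to 895.5 in controls and 1041 to 1052 in mutants, with 9 of 10 changes positive and 0 called. Tendon markers summed to 74.4 to 93.8 in controls and 55 to 68.8 in mutants, with 2 changes positive and 4 negative. The largest of them, Fmod, was at 50.2 to 64.0 FPKM in controls and 30.1 to 34.3 in mutants and was the only 1 called. The tendon markers Scx, Tnmd, Mkx and Kera overlapped. Bone markers summed to 8819 to 11810 in controls and 7990 to 9073 in mutants, with overlapping groups and 0 of 11 called by limma. The sums of muscle, endothelial, erythroid, neuron and Schwann cell markers overlapped as well. The part of these shifts in the members' values was not tested.

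**Figure D4:**
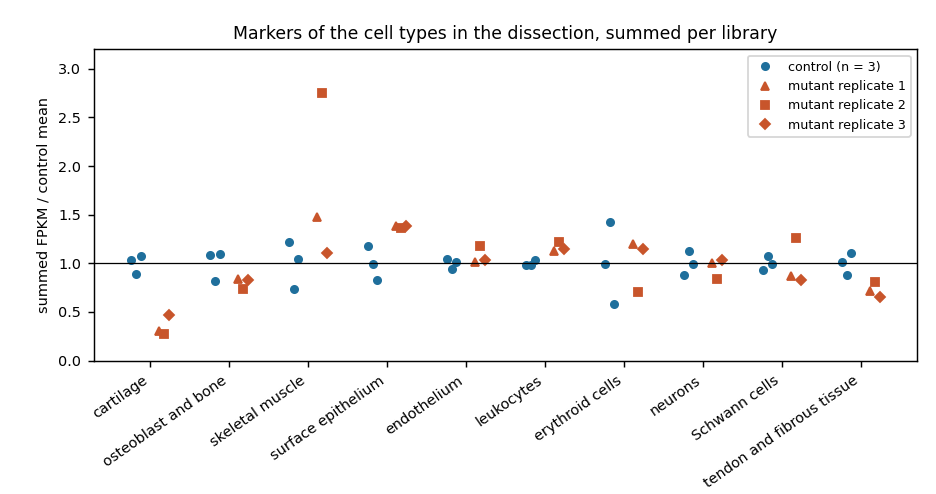
Summed FPKM of each cell type marker list by library, divided by the control mean of that list. Circles are the 3 controls, and a triangle, a square and a diamond are mutant replicates 1, 2 and 3. Cartilage lies lower in all 3 mutants, and muscle is highest in mutant replicate 2.

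Beyond the 51 members, 84 further genes of the pathway were listed in 5 lists, of which 64 could be tested. Limma called 3 of the 64, Sost and Sostdc1 higher and Id1 lower in mutants, where it called 0.264% of all tested genes. The changes were positive for 28 and negative for 36, and the groups did not overlap in 11, or 17.2%, beside the 17.0% of all tested genes.

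The BMP target genes had a negative change in 11 of 11, where 49.2% of all tested genes had a positive one, and their median was -0.11. Limma called 1 of the 11, beside 0.264% of all tested genes. The list was chosen with earlier results of these data known, and another choice of targets could give another count. It shares Sp7 with the bone markers, of which 10 of 11 also had a negative change. Cartilage markers were lower as well, with 12 of 12 changes negative. The part of bone and cartilage content in these values was not tested. Id1, an inhibitor of basic helix-loop-helix factors and a direct BMP target, was at 78.5, 78.2 and 75.9 FPKM in control replicates 1 to 3 and at 61.7, 56.5 and 54.1 in mutant replicates 1 to 3. All mutants lay below all controls. Its mean fell from 77.5 ± 1.43 to 57.5 ± 3.86 (SD, n = 3), a log2 change of -0.43 ± 0.057 SE with a limma adjusted p of 0.0452. That call held in 9 of 18 alternative fits, whose adjusted p from limma ran from 0.0362 to 0.5. It was lost without any 1 control, without mutant replicate 2 or 3, with no filter or no variance trend, with sex in the model and in female libraries alone. Id3, a close relative, had a log2 change of -0.18 ± 0.064 SE (limma adjusted p = 0.360).

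Among 12 feedback inhibitors and Smad corepressors, limma called 0, with 6 changes positive, 6 negative and a median of 0.0087. Smad6, the BMP-arm inhibitory Smad, was at 12.4, 11.3 and 10.9 FPKM in control replicates 1 to 3 and at 10.2, 8.73 and 9.47 in mutant replicates 1 to 3. The mutants lay below the controls (log2 change -0.26 ± 0.076 SE, limma adjusted p = 0.294). Bambi, a decoy receptor, had a log2 change of -0.15 ± 0.071 SE, or -0.091 without control replicate 1.

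Sost (sclerostin), an antagonist made by osteocytes that is known mainly for blocking Wnt coreceptors, was at 2.73, 2.29 and 2.26 FPKM in control replicates 1 to 3 and at 9.08, 6.08 and 9.42 in mutant replicates 1 to 3. Sostdc1, a related antagonist of BMP and Wnt signals in teeth and hair, was at 38.1, 36.5 and 31.0 FPKM in controls and at 62.7, 72.4 and 61.6 in mutants. Both rose in mutants, Sost by a log2 change of 1.41 ± 0.15 SE (limma adjusted p = 0.0228) and Sostdc1 by 0.88 ± 0.093 SE (limma adjusted p = 0.0210), and each call held in 11 of 18 alternatives. They belong to the list of further ligands, receptors and antagonists, of which 14 of 32 could be tested, with 11 positive changes and a median of 0.077.

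Of 11 TGF-beta target genes, limma called 0, with 3 positive and 8 negative changes and a median of -0.087. The collagen gene Col1a1 had a log2 change of -0.32 ± 0.12 SE (limma adjusted p = 0.388) and the fibronectin gene Fn1 of -0.20 ± 0.082 SE (limma adjusted p = 0.427), or -0.13 without mutant replicate 3. Of 18 genes for activation and matrix storage, 16 were tested and 0 called, with a median of -0.00088. Pcolce, an enhancer of procollagen cleavage by Bmp1, had a log2 change of -0.39 ± 0.10 SE (limma adjusted p = 0.258), and Fbn2 (fibrillin 2, which anchors latent complexes) of 0.38 ± 0.12 SE (limma adjusted p = 0.322), or 0.25 without mutant replicate 2.

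**Figure D5:**
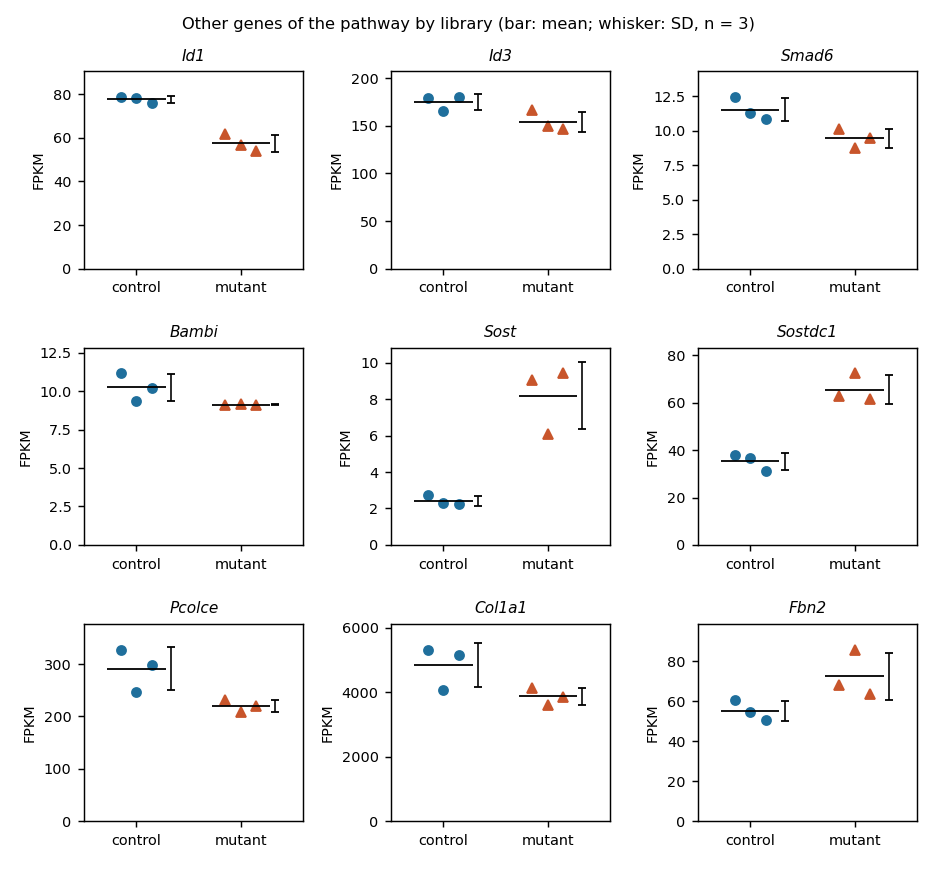
FPKM by library for 9 of the other pathway genes, with group means as bars and SD as whiskers (n = 3). Id1 is lower and Sost and Sostdc1 are higher in mutants with a limma adjusted p under 0.05, and the remaining genes did not pass the test.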

How the data were processed

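Libraries of total RNA extracted with TRIzol were made with a stranded mRNA kit, per the labels' protocols, and 3 control and 3 mutant libraries were grouped by the genotype label. The submitters' processing notes name Cuffdiff 2.2.1, TopHat2 2.1.1, SAMtools 0.1.18, Bowtie2 2.2.8 and build mm10. The strand setting, annotation and any filters were not given in the sources used here. Of the 51 members, 25 overlap another annotated gene, 20 of them on the other strand (among them Tgfb2, Inhba, Acvrl1 and Chrd), and reads of such pairs cannot be told apart without strand.

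The authors deposited FPKM values for 24346 gene symbols per library, per the file headers. A count test was not used, since FPKM are no counts. Depth was estimated from low values under 0.15 FPKM, which step by the worth of 1 fragment, and from the lengths of 83 genes with 1 transcript. In each other library, 624 to 786 low genes were compared with control replicate 1. At a tolerance of 0.01, 36.4% to 41.7% of them shared the commonest ratio, so the depths are estimates. They describe the library size behind the scaled FPKM, which may differ from the number of fragments mapped. The controls, replicates 1 to 3, came to 12900000, 14300000 and 12100000 fragments and the mutants to 13200000, 11600000 and 8670000.

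Genes whose mean reached 1 FPKM were compared as log2(FPKM + 1) with limma 3.58.1 in R 4.3.3 (lmFit, eBayes with trend, two-sided, no covariate, 4 residual degrees of freedom), adjusted by Benjamini-Hochberg over all 14766 genes and called under 0.05. Fold changes on this scale understate those of low genes. The 95% intervals are limma's and are not adjusted for the number of genes. Nothing states that libraries came from separate embryos. The mutants cannot all be repeats of 1 embryo, since by expression replicate 1 was female and replicates 2 and 3 male. Among the controls, and between mutant replicates 2 and 3, this was not settled. The p-values thus measure the spread between these samples, which may be technical in part.

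The members and gene lists were chosen with earlier results of these data known. Values in every library are given for called members, members whose groups do not overlap and the top member of each role, and for Bmp5, Mstn, Nog, Ltbp2 and Tgfb1, chosen after their values were seen. From each list of other pathway genes, called genes and up to 2 with the smallest p are named. Sex was read from Xist and Y-linked genes. Of 98 listed markers 97 were found. Positions are from GENCODE on GRCm38, and promoter sequences from RefSeq, which matched 36 members. The fit was tested on simulated data. Alternatives changed the pseudocount, filter, scaling, variance model, sex term and the libraries used. The median ratio and upper quartile factors of the libraries all lay between 0.996 and 1.003. These scalings could thus hardly change a call, and a call that held under them adds little.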

Additional observations from a re-analysis of the deposited data

How the results depend on the processing

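The members called stayed at 0 in the main fit, in all 18 alternatives and at an adjusted p under 0.1, and 3 to 7 members reached an unadjusted p under 0.05 across the alternatives. Those members were 6.0% to 15.8% of the members tested, beside 5.14% to 13.3% of all tested genes across the same fits. The smallest limma adjusted p of a member ran from 0.190 with library weights to 0.964 with sex as a covariate. The median change of the members ran from 0.015 to 0.051.

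Over all genes, 39 calls became 80 at an adjusted p under 0.1, 18 with no filter on low values, 19 without the variance trend, 71 with library weights and 10 with sex as a covariate. Leaving out 1 library gave 15 to 44 calls: 17, 15 and 18 without control replicates 1 to 3, and 23 without mutant replicate 1. The 3 calls among other pathway genes became 0 with no filter on low values, 1 without the variance trend, 0 with sex as a covariate and 1 in female libraries alone, where the lone mutant is assumed to vary like the controls. They were 0 to 2 when 1 library was left out: 0 without control replicate 1 or 2, and 1 without control replicate 3 or mutant replicate 1 or 3.

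The 8 members whose groups did not overlap became 10 to 18 when 1 library was left out, a check added after seeing the data: 16 and 14 without control replicates 1 and 2, and 18 without mutant replicate 3. Fewer samples make separation more frequent, and the share over all genes was then 24.2% to 29.5%, beside 20.0% to 36.0% of members.

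Changes near 0 turned sign, and so did some larger ones. Among the larger ones, Tgfbr3 went from 0.14 to -0.069 without mutant replicate 2, and Bmpr1b from -0.12 to 0.018 in female libraries alone. Eng became -0.0030 and -0.032 without control replicates 2 and 3, and -0.030 and -0.085 without mutant replicates 1 and 2, and its highest value was 0.13, without mutant replicate 3. Fstl1 became 0.038 with quantile normalization, and 0.021, 0.024 and 0.090 without control replicate 1, mutant replicate 1 and mutant replicate 3, and was lowest at -0.137 without mutant replicate 2. Smad4 became -0.0072 with library weights and -0.020 both with sex as a covariate and in female libraries alone, and -0.035 and -0.0070 without control replicate 1 and mutant replicate 3, and was highest at 0.0271 without control replicate 3. The cause was not tested.

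No paired analysis was possible because the replicate numbers only follow the order of the deposited samples, and the labels tie no control to a mutant. Precision is limited by 3 libraries a group, and the part of depth in it was not tested.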

Other observations

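Several partners of the measured receptors were at or near 0 in these libraries. Gdf2 and Bmp10, the circulating ligands of Acvrl1 and Eng, had means of 0.0359 and 0.0117 FPKM, beside 14.5 FPKM for Acvrl1 and 39.9 for Eng. Nodal had a mean of 0.0230 FPKM and Acvr1c, only 1 of its type I receptors, 0.0336. Amh and its receptor Amhr2 were at 0.0896 and 0.395 FPKM. Of the 84 other pathway genes, 20 had a mean under 1 FPKM, between 0.0104 and 0.942.

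Other members of the pathway lists were abundant. Nbl1, a secreted BMP antagonist of the gremlin type, had a mean of 83.4 FPKM, above each secreted antagonist or modulator of the set except Fstl1 and Bmp1. Furin, the protease that matures TGF-beta and BMP precursors, was at 46.1 FPKM, and the inhibin alpha subunit gene Inha at 20.0 FPKM, above Inhba and Inhbb. The genes named here were chosen after their values were seen.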
